A study of Mus musculus with 6 samples.

Results

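Troponin is the calcium switch of the striated muscle thin filament, and its genes were examined in C2C12 myotubes that had lost *Phf2* and in mock control myotubes. The members were taken by gene symbol: *Tnnt1*, *Tnnt2*, *Tnnt3*, *Tnni1*, *Tnni2*, *Tnni3*, *Tnnc1* and *Tnnc2*, which are 8 of the 55401 genes in the count matrix. C2C12 cells are mouse myoblasts that exit the cell cycle and fuse when serum is withdrawn, and PHF2 is a demethylase of H3K9me2, a repressive histone mark. Libraries were made from 3 control and 3 *Phf2* KO wells at 2 d post differentiation in medium with 2% horse serum. The control cells, labelled wild type, had received a plasmid with Cas9, ZsGreen and a nontargeting gRNA. The *Phf2* KO cells had received a pool of such plasmids with gRNAs against *Phf2*. The nontargeting gRNA has no match in the mouse genome, so an effect of DNA cutting itself and one of *Phf2* loss cannot be told apart. Both populations were sorted for ZsGreen, and the KO cells were not cloned. Each group came from a single sorted pool in a single experiment, so *Phf2* loss and other differences between the pools cannot be told apart, and p-values measure only the spread between wells.

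Troponin has 3 subunits. Troponin C binds calcium, troponin I holds back the contact of actin with myosin until calcium arrives, and troponin T anchors the complex to tropomyosin. Each subunit has isoforms from separate genes that are used to type muscle fibers. *Tnnt3*, *Tnni2* and *Tnnc2* are the fast skeletal isoforms. *Tnnt1* and *Tnni1* are the slow skeletal isoforms. *Tnnt2* and *Tnni3* are the isoforms of the adult heart, and *Tnnc1* is shared by slow fibers and heart. Developing skeletal muscle also uses *Tnnt2*, so cardiac troponin T in a myotube does not by itself mark a cardiac cell.

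Total counts were 56821143 to 58507833 in the controls and 52526109 to 67502788 in the KO libraries. *Phf2* itself was measured at 102, 95.5 and 105 CPM (counts scaled to a common library size) in control replicates 1, 2 and 3 and at 41.1, 37.6 and 38.6 CPM in the KO replicates. The KO mean was 38.8% of the control mean, and the groups did not overlap. All 8 myotube markers, such as *Myog*, *Des* and *Myh3*, were present, with a summed level between 5267 and 7634 CPM. Of the 9 cardiomyocyte markers, *Tbx5*, *Hand2* and *Myl7* had a count of 0 in all libraries, which allows up to 3 reads in a library. The summed level was 16.3 to 18.0 CPM in the controls and 15.7 to 16.1 CPM in the KO libraries, lower in every KO library (two-sided exact permutation p = 0.1), and its part in the troponin values was not tested. Most of this sum was *Gata4*, with 16.3 ± 1.03 CPM in the controls and 15.1 ± 0.182 CPM in the KO cells (SD, n = 3). The *Gata4* groups overlapped (adjusted p = 0.552 by the quasi-likelihood test of edgeR). Adipocyte markers summed to at most 0.824 CPM.

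Troponin transcripts were lower in the *Phf2* KO cells. In 7 of the 8 genes every KO library lay below every control library, and 5 genes (*Tnnc2*, *Tnni1*, *Tnnt2*, *Tnni2* and *Tnnt1*) passed an adjusted p of 0.05 in the quasi-likelihood test of edgeR with Benjamini-Hochberg adjustment over the 17310 genes tested. No troponin gene was higher past the threshold in this test, at an unadjusted p under 0.05, or with exactTest, DESeq2 or limma. With exactTest of edgeR, the test of the study, 7 genes were lower past it. Across all genes tested, 6.48% passed the threshold in the quasi-likelihood test, 3.26% lower and 3.22% higher. Groups did not overlap, with the KO lower, in 12.2% of them. All 8 troponin genes passed the filter on low counts. Their median log2 fold change was -0.47, against -0.00096 over all genes tested. Without control replicate 1, *Phf2* KO replicate 2 or *Phf2* KO replicate 3, the number of troponin genes past the threshold was 3, and it was 7 without control replicate 3. In these bulk libraries, fewer differentiated cells and less troponin RNA in each cell cannot be told apart.

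**Figure D1:**
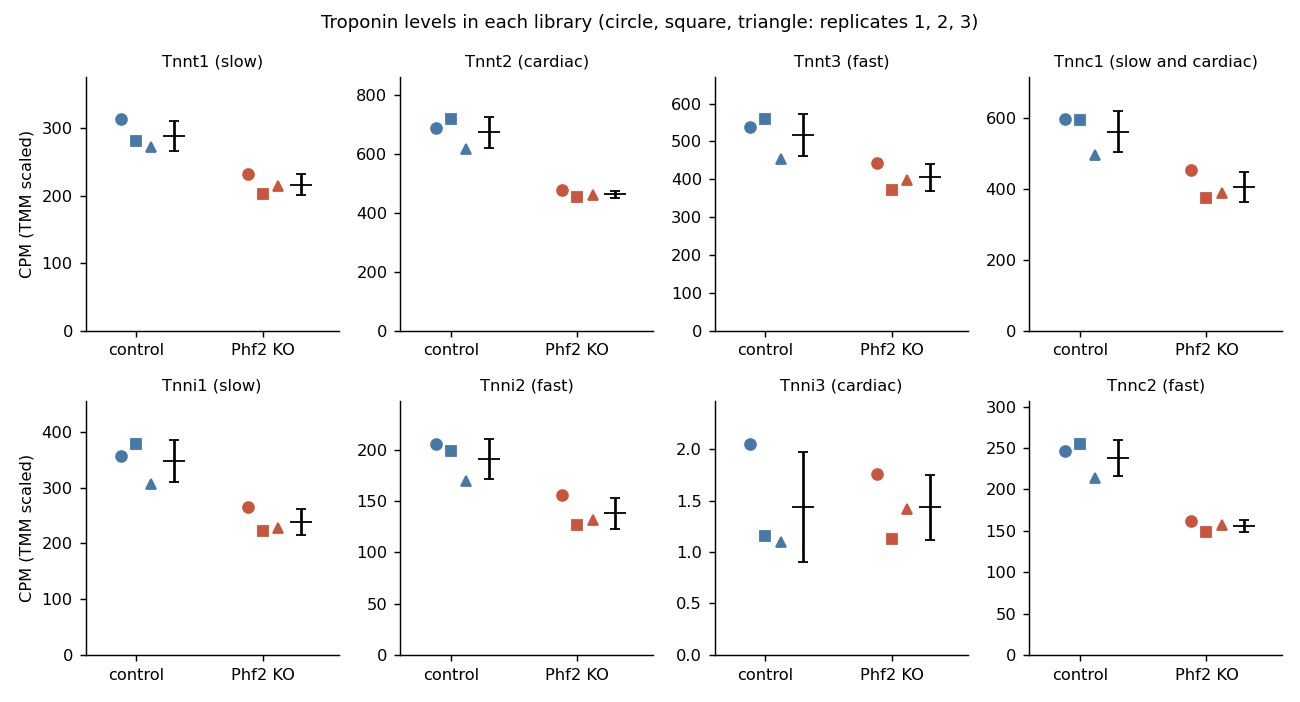
Level of each troponin gene in CPM (scaled by TMM) in the 3 control and 3 *Phf2* KO libraries. Circles, squares and triangles are replicates 1, 2 and 3, and the black marks are the mean ± SD. In every panel except that of *Tnni3*, which stays between 1.10 and 2.05 CPM, the KO points lie below the control points.

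*Tnnt2*, cardiac troponin T, lies on the plus strand of chromosome 1 from 135836354 to 135852260 (GRCm38, the same assembly as mm10, here and below). It had 689, 718 and 616 CPM in the controls and 477, 455 and 460 CPM in the *Phf2* KO libraries. The KO libraries lay close together, and the gap to the lowest control was 139 CPM. The mean (± SD, n = 3) fell from 674 ± 52.7 to 464 ± 11.6 CPM. The log2 fold change was -0.54 (SE 0.052, adjusted p = 5.99e-05 by the quasi-likelihood test of edgeR). *Tnnt2* had the smallest p-value of the troponins and stood at rank 32 among all genes tested.

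*Tnnt1*, slow skeletal troponin T, spans bases 4504570 to 4516382 of chromosome 7 on the minus strand. Its level was 314, 281 and 272 CPM in the controls and 233, 202 and 215 CPM in the KO libraries. The groups were apart by 39.0 CPM. *Tnnt1* fell with a log2 fold change of -0.41 (SE 0.062, adjusted p = 0.00182 by edgeR).

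*Tnnt3*, fast skeletal troponin T, lies on the plus strand of chromosome 7 from 142498836 to 142516009. It had 537, 558 and 454 CPM in the controls and 444, 372 and 398 CPM in the KO libraries. The groups did not overlap, but the highest KO library and the lowest control were only 9.89 CPM apart. The log2 fold change of -0.35 (SE 0.096) had an adjusted p of 0.0960 in the edgeR test and missed the threshold. The value was past it with exactTest of edgeR (adjusted p = 0.00837), with DESeq2 (adjusted p = 0.0325) and without control replicate 3 (adjusted p = 0.00249).

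Troponin I is the inhibitory subunit. *Tnni1*, the slow isoform, lies on the plus strand of chromosome 1 from 135779434 to 135810989. Its level was 357, 379 and 307 CPM in the controls and 265, 223 and 228 CPM in the KO libraries. All KO libraries were lower, with a log2 fold change of -0.54 (SE 0.097, adjusted p = 0.0219 by edgeR). Without control replicate 1, *Phf2* KO replicate 2 or *Phf2* KO replicate 3 the adjusted p was 0.0897, 0.0564 or 0.106.

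*Tnni2*, the fast isoform, is a short gene on the plus strand of chromosome 7 from 142441808 to 142444410. It had 206, 198 and 169 CPM in the controls and 155, 127 and 131 CPM in the KO libraries. The groups were apart by 13.6 CPM. *Tnni2* fell with a log2 fold change of -0.47 (SE 0.10, adjusted p = 0.0372 by edgeR). The adjusted p was above 0.05 when control replicate 1 (0.0656), control replicate 2 (0.143), *Phf2* KO replicate 2 (0.0935) or *Phf2* KO replicate 3 (0.127) was left out, and when genes of low count were kept (0.0712).

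*Tnni3*, the cardiac isoform, spans bases 4518305 to 4524229 of chromosome 7 on the minus strand. It stood at the floor of the family, with 2.05, 1.15 and 1.10 CPM in the controls and 1.76, 1.12 and 1.42 CPM in the KO libraries, which is 59 to 117 counts a library. The groups overlapped. The log2 fold change was 0.0015 with an SE of 0.31, so that 2 SEs on either side spanned 0.62, and a difference of the size seen in the other members was within this range. The annotated gene *Dnaaf3* overlaps *Tnni3* on the same strand, and part of these counts may belong to it.

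Troponin C is the calcium sensor. *Tnnc2*, the fast isoform, spans bases 164777161 to 164779967 of chromosome 2 on the minus strand. Its level was 246, 255 and 214 CPM in the controls and 162, 149 and 157 CPM in the KO libraries. The highest KO library was well below the lowest control. *Tnnc2* had the lowest log2 fold change of the 8 genes, -0.61 (SE 0.063, adjusted p = 1.23e-04 by edgeR), and its KO mean was 65.3% of the control mean.

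*Tnnc1*, the slow and cardiac isoform, lies on the plus strand of chromosome 14 from 31208312 to 31211729. It had 596, 594 and 495 CPM in the controls and 453, 375 and 389 CPM in the KO libraries. The groups were apart by 41.6 CPM. The log2 fold change of -0.47 was as large as that of *Tnni2*, but with an SE of 0.10 and an adjusted p of 0.0526 in edgeR it missed the threshold. With the replicate number as a block, the adjusted p of *Tnnc1* was 0.00176. It was also past the threshold with exactTest (1.54e-04), DESeq2 (0.00267), scaling by library size alone (0.0486), and without control replicate 3 (0.00248) or with *Phf2* KO replicate 1 left out (0.0135).

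**Figure D2:**
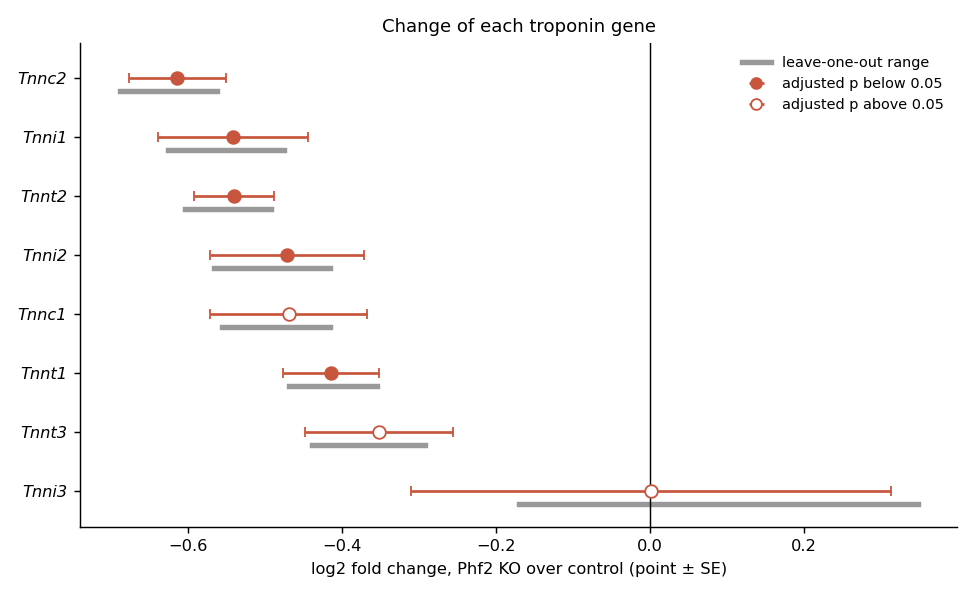
Log2 fold change of each troponin gene in *Phf2* KO over control cells. Points with bars are the estimate ± SE of edgeR, filled where the adjusted p was below 0.05, and grey bars are the range of estimates when 1 library was left out. For 7 genes the whole grey bar lies below 0, and that of *Tnni3* runs from -0.17 to 0.35.

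The decrease was present within each replicate number. *Phf2* KO replicate 1 had between 66.0% (*Tnnc2*) and 82.6% (*Tnnt3*) of the level of control replicate 1 over the 7 genes without *Tnni3*. For replicate 2 the range was from 58.2% (*Tnnc2*) to 72.1% (*Tnnt1*), and for replicate 3 from 73.2% (*Tnnc2*) to 87.8% (*Tnnt3*). *Tnnc2* had the lowest value in all 3 pairs. The 8 genes together held 0.296%, 0.297% and 0.253% of all counts in the controls and 0.218%, 0.190% and 0.198% in the KO libraries, with no overlap (two-sided exact permutation test, p = 0.1, the smallest that 3 libraries against 3 allow).

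Levels of different troponins were compared per length, as CPM per kilobase of the median coding transcript in GENCODE M21. In the controls the order was *Tnnc1* (779 ± 80.3), *Tnnt2* (610 ± 47.7), *Tnnt3* (510 ± 54.6), *Tnnc2* (341 ± 31.0), *Tnni1* (335 ± 35.7), *Tnnt1* (309 ± 23.5), *Tnni2* (255 ± 25.9) and *Tnni3* (1.57 ± 0.587; SD, n = 3). The ranges of *Tnnc2* and *Tnni1* and those of *Tnni1* and *Tnnt1* overlapped over the controls. Within each control library, though, *Tnni1* (344, 365 and 295) was above *Tnnt1* (336, 301 and 291). *Tnnc2* and *Tnni1* had no order common to all controls. In the *Phf2* KO libraries *Tnnt2* (420 ± 10.5) and *Tnnt3* (400 ± 35.8) overlapped as well. *Tnni1* and *Tnni2* did not overlap in either group. The order depended on the scale, and this one was chosen after seeing the data. By the deposited TPM, the planned scale, the control order was *Tnnc1* (1689 ± 164), *Tnnc2* (740 ± 63.5), *Tnnt3* (675 ± 373), *Tnnt1* (568 ± 120), *Tnni2* (440 ± 88.2), *Tnnt2* (282 ± 64.2), *Tnni1* (262 ± 29.8) and *Tnni3* (3.13 ± 1.87; SD, n = 3). *Tnnt2* thus stood at rank 2 per kilobase of coding transcript, 6 by TPM and 7 by counts per summed exon length, and on the last of these *Tnni2* was again above *Tnni1*. On all 3 scales *Tnnc1* was the highest and *Tnni3* the lowest.

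The balance of isoforms was compared by shares within each subunit, with an exact permutation test that cannot give a p under 0.1 for 3 libraries against 3. Of troponin C, *Tnnc2* made up 29.8%, 30.7% and 30.8% of the CPM per kilobase in the controls and 26.9%, 29.0% and 29.3% in the KO libraries. The share was lower in all KO libraries, by 2.03 percentage points. The count ratio of *Tnnc1* to *Tnnc2*, in which length drops out, was 2.42, 2.33 and 2.31 in the controls and 2.79, 2.53 and 2.49 in the KO libraries. Its log2 value was higher by 0.14 with no overlap (exact permutation p = 0.1, adjusted p = 0.283 over 17 shares and ratios). This direction of the *Tnnc2* share was the same on all 5 scales tried, with a decrease between 2.01 and 2.21 points. The scales made from counts differ only by a fixed length for each gene, so they could not differ in this direction. Agreement over the scales is therefore no independent check.

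Of troponin T, *Tnnt2* had a lower share and *Tnnt3* a higher share in all KO libraries when shares were taken from counts. *Tnnt2* had 41.9%, 43.3% and 43.0% of the troponin T level per kilobase in the controls and 38.6%, 41.3% and 40.0% in the KO libraries. *Tnnt3* had 35.6%, 36.7% and 34.5% in the controls and 39.1%, 36.9% and 37.8% in the KO libraries. Neither pair of groups overlapped (exact permutation p = 0.1 for both, adjusted p = 0.283), although *Phf2* KO replicate 2 exceeded the highest control *Tnnt3* share only narrowly. Per summed exon length the *Tnnt3* groups overlapped, with a difference of 1.87 points (exact permutation p = 0.2). The share of *Tnnt1* was 21.7 ± 1.43% in the controls and 22.1 ± 0.265% in the KO cells (SD, n = 3), and its groups overlapped. The count ratio of *Tnnt2* to *Tnnt3* was 1.28, 1.29 and 1.36 in the controls and 1.07, 1.22 and 1.15 in the KO libraries.

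Of troponin I, the fast isoform *Tnni2* made up 44.2%, 41.9% and 43.2% in the controls and 44.6%, 43.9% and 44.1% in the KO libraries on the same scale. The groups overlapped (exact permutation p = 0.3), and *Tnni3* never exceeded 0.414%. Summed over isoforms, the KO mean was 73.6% of the control mean for troponin T, 70.3% for troponin I and 70.1% for troponin C. The log2 ratio of summed T to C was higher by 0.069 in the KO cells and that of I to C by 0.0010, each with overlapping groups (exact permutation p = 0.2 and p = 1). With the summed exon length in place of the coding transcript, the T to C ratio was higher by 0.12 with no overlap (exact permutation p = 0.1, adjusted p = 0.243). By the deposited TPM, the planned scale, the log2 ratio of T to C went the other way. It differed by -0.60 with no overlap (exact permutation p = 0.1, adjusted p = 0.243). With assembled loci added to the TPM, it differed by -0.17 with overlap.

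The shares of troponin T and I depended on the unit. Shares from the deposited TPM, a level scaled within each library, differed from those above. By TPM, *Tnnt3* had 898, 883 and 244 in the controls and 333, 259 and 373 in the KO libraries, while its CPM in control replicate 3 was 454 against 537 and 558. Control replicate 3 was thus far below the other controls in TPM and only moderately lower in CPM. By TPM the *Tnnt3* share of troponin T was 46.9%, 54.6% and 23.5% in the controls and 44.5%, 44.3% and 49.5% in the KO libraries, a difference of 4.44 points with overlap (exact permutation p = 0.9). The *Tnnt2* share lay the other way from that per kilobase: it was 18.7 ± 1.42% in the controls and 25.6 ± 0.937% in the KO cells by TPM. For *Tnni2* the TPM share of troponin I was 62.1 ± 6.12% in the controls and 59.4 ± 0.973% in the KO cells, with overlap (exact permutation p = 0.6). The log2 ratio of summed T to I was lower by 0.62 in the KO cells by TPM, with no overlap, and higher by 0.068 by CPM per kilobase, with overlap. The KO mean of *Tnnt1* was 34.6% of the control mean by TPM and 75.03% by CPM. Only the troponin C shares were alike in both units: the *Tnnc2* share by TPM was 29.9%, 30.8% and 30.8% in the controls and 27.0%, 29.0% and 29.3% in the KO libraries (exact permutation p = 0.1, adjusted p = 0.243). These TPM are those of the reference rows of the genes. The authors also gave TPM for loci that they assembled there. The locus at *Tnnt3* had 1212, 1250 and 958 TPM in the controls and 1077, 643 and 939 TPM in the KO libraries. At *Tnnt1* the assembled locus had 677, 610 and 584 TPM in the controls and 451, 399 and 480 TPM in the KO libraries. The cause of the spread in TPM was not tested. *Tnnc1* and *Tnnc2* have 1 coding transcript each in the basic annotation, and *Tnnt3* has 21.

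**Figure D3:**
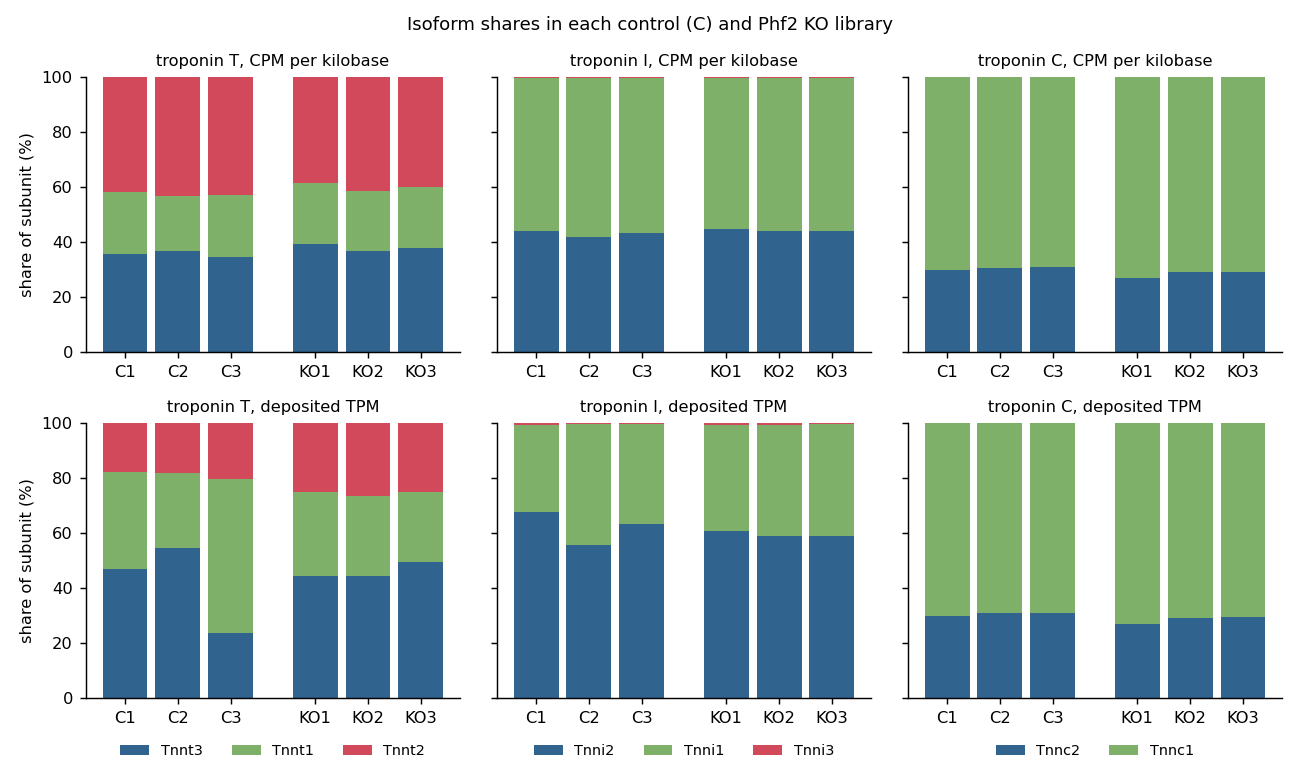
Share of each isoform in its subunit (percent) for control (C1 to C3) and *Phf2* KO (KO1 to KO3) libraries, from CPM per kilobase in the upper row and from the deposited TPM in the lower row. The *Tnnt3* share of C3 is 34.5% in the upper row and 23.5% in the lower row, while the troponin C bars are alike in both.

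The 7 abundant troponins moved together across libraries. Within the controls, replicate 3 was the lowest for all 7 genes. Within the *Phf2* KO libraries, replicate 1 was the highest and replicate 2 the lowest for all 7. The summed myotube markers had the same order among the KO libraries, with 5746, 5267 and 5468 CPM, and were 7633, 7634 and 6556 CPM in the controls. The KO mean of these markers was 75.5% of the control mean, and that of the 7 summed troponins was 71.8%. The troponins amounted to 38.6%, 39.1% and 38.5% of the myotube marker level in the controls and to 38.1%, 36.1% and 36.2% in the KO libraries. This ratio was lower in all KO libraries (two-sided exact permutation p = 0.1), by far less than the troponins themselves. It was chosen after seeing the data. Most of the marker sum came from *Myh3*, *Acta1* and *Des*. Their control means were 2540 ± 244, 2491 ± 265 and 1088 ± 66.7 CPM (SD, n = 3). In the KO cells they were 1866 ± 89.2, 1938 ± 156 and 843 ± 30.3 CPM (SD, n = 3). *Acta1* is also among the genes most like the troponins below, so the ratio holds no independent measure of myotube content. The summed myoblast markers, among them *Pax7*, *Mki67* and *Top2a*, were between 208 and 226 CPM in the controls and between 206 and 227 CPM in the KO libraries, and none of the 6 passed the threshold in edgeR, in DESeq2 or at an unadjusted p under 0.05. The part of the myotube state in the troponin values was not tested.

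**Figure D4:**
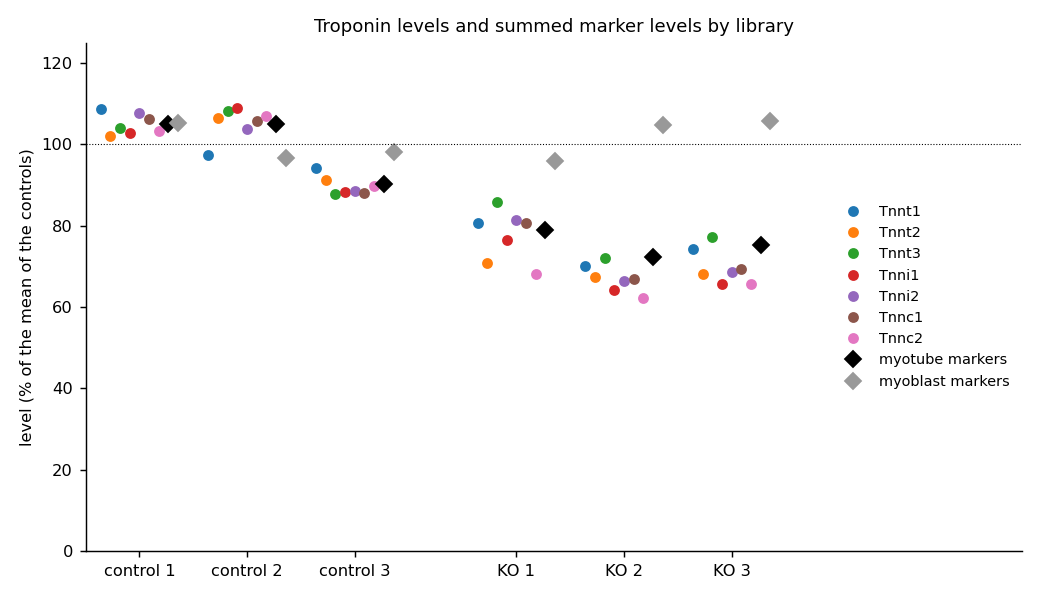
Level of 7 troponin genes and of the summed myotube and myoblast markers in each library, as percent of the control mean. The troponins and the myotube markers lie at 85.9% or lower in all KO libraries, and the myoblast markers between 96.0% and 106%.

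The genes whose levels were most like the mean troponin profile over the 6 libraries were *Vamp5* (r = 0.999), *Pdlim3* (r = 0.996), *Acta1* (r = 0.996), *E2f2* (r = 0.995) and *Mybph* (r = 0.994), of 10916 genes compared. *Acta1* encodes skeletal α-actin, the core of the thin filament, and *Pdlim3* a protein of the Z-disc. These correlations describe 6 libraries that also differ by group, and the likeness has no test. *Acta1* had 2491 ± 265 CPM in the controls and 1938 ± 156 CPM in the KO cells (SD, n = 3), a log2 fold change of -0.36 with an adjusted p of 0.117 in edgeR and of 0.000808 with the replicate block.

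The partners of troponin on the thin filament (27 genes, all tested) showed both directions. Of these, 8 were lower and 4 higher past the threshold, while 3.26% of all genes tested were lower and 3.22% higher. The median log2 fold change was -0.13. The largest decreases past the threshold were those of *Klhl40* (-0.76), *Neb* (-0.63) and *Lmod3* (-0.59), of which *Neb* encodes nebulin, the ruler-like protein along the filament, and *Lmod3* an actin nucleator. With the replicate block *Neb* had an adjusted p of 0.122. The genes higher past the threshold were *Acta2* (0.17), *Tpm4* (0.13), *Tmod3* (0.30) and *Wdr1* (0.27). *Acta2* is smooth muscle actin, *Tpm4* and *Tmod3* are the tropomyosin and tropomodulin found in many cell types, and *Wdr1* acts in actin turnover. Actin genes are near-identical, so their counts may share reads. With limma on log2(TPM + 1) and log2(TPM + 0.1), 1 and 2 partners were lower past the threshold. The number of lower genes was 5 without control replicate 1, 4 without control replicate 2, and 3 without *Phf2* KO replicate 2 or 3. It was 12 without control replicate 3 and 6 without *Phf2* KO replicate 1. With exactTest and DESeq2, 11 were lower in each, and 2 and 5 were higher. Over all genes, 565 were lower in the quasi-likelihood test. That number was 431 and 262 without control replicate 1 or 2, and 319 and 324 without *Phf2* KO replicate 2 or 3.

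Companions of the fast isoforms that passed the threshold were all lower. Over all genes tested, 3.26% were lower and 3.22% higher past it. Of 17 tested genes (19 listed), 7 were lower and 0 higher past the threshold, with a median of -0.44, led by the fast myosin heavy chains *Myh4* (-1.10), *Myh1* (-0.93) and *Myh2* (-0.89). These myosins are close copies in a cluster, so their reads may be shared, and *Myh4* had an adjusted p of 0.0657 with the block. At an unadjusted p under 0.05, 1 was higher, and none was higher with exactTest or DESeq2. The number of lower genes was 4 without control replicate 2, *Phf2* KO replicate 2 or *Phf2* KO replicate 3. It was 6 without control replicate 1 or *Phf2* KO replicate 1, and 10 without control replicate 3. Of 17 tested slow or cardiac companions (24 listed), 12 were lower and 1 higher, with a median of -0.64. *Actn2* (-1.41), *Tecrl* (-1.03) and *Myh6* (-1.001) had the largest decreases past the threshold, and the LIM protein gene *Fhl2* was higher (0.23). *Tecrl* had an adjusted p of 0.0667 with the block, and the number of lower genes was 7 without *Phf2* KO replicate 3. *Myl3*, *Myl7*, *Mybphl* and *Sln* had a count of 0 in all libraries. With limma on log2(TPM + 1) and log2(TPM + 0.1), the lower genes numbered 3 and 4 among the fast and 2 and 3 among the slow or cardiac companions. The difference between the fast and slow or cardiac companions was not tested.

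Troponin responds to calcium released by the sarcoplasmic reticulum. Of 23 tested genes for calcium release and uptake (25 listed), 13 were lower and 0 higher past the threshold, with a median of -0.41. Among all genes tested, 3.26% were lower and 3.22% higher past it. *Cacna1s*, the voltage sensor of the T-tubule, had a log2 fold change of -0.74, the release channel *Ryr3* of -0.70, and the store protein *Hrc* of -0.64. Of 23 myogenic regulators, 5 were lower and 0 higher, with a median of -0.04, led by *Mef2c* (-1.52), *Tead4* (-0.49) and *Myog* (-0.34), the last a member of the myotube markers as well. At an unadjusted p under 0.05, 2 regulators and 1 calcium gene were higher, and with exactTest 1 regulator was. Leaving out control replicate 2 or *Phf2* KO replicate 2 gave 2 lower regulators, and leaving out *Phf2* KO replicate 3 gave 3. With limma on log2(TPM + 1) and log2(TPM + 0.1), 5 and 6 calcium genes and none of the regulators were lower past the threshold. Of the 8 myotube markers, 6 were lower and 0 higher, and none was higher at an unadjusted p under 0.05. The 2 tested cardiomyocyte markers and the 1 tested adipocyte marker did not pass the threshold in edgeR or DESeq2 or at an unadjusted p under 0.05, and of 4 smooth muscle markers *Acta2* did. The summed level of the latter was 3142 to 3214 CPM in the controls and 3447 to 3609 CPM in the KO libraries, most of it *Acta2* (3029 ± 39.4 and 3400 ± 80.3 CPM; SD, n = 3). The log2 fold changes of *Cnn1* (-0.52), *Smtn* (-0.10) and *Myh11* (-0.06) were negative, and *Cnn1* had groups that did not overlap and an unadjusted p of 0.00654 in edgeR (adjusted p = 0.0782). Several genes stand in more than 1 of these lists.

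**Figure D5:**
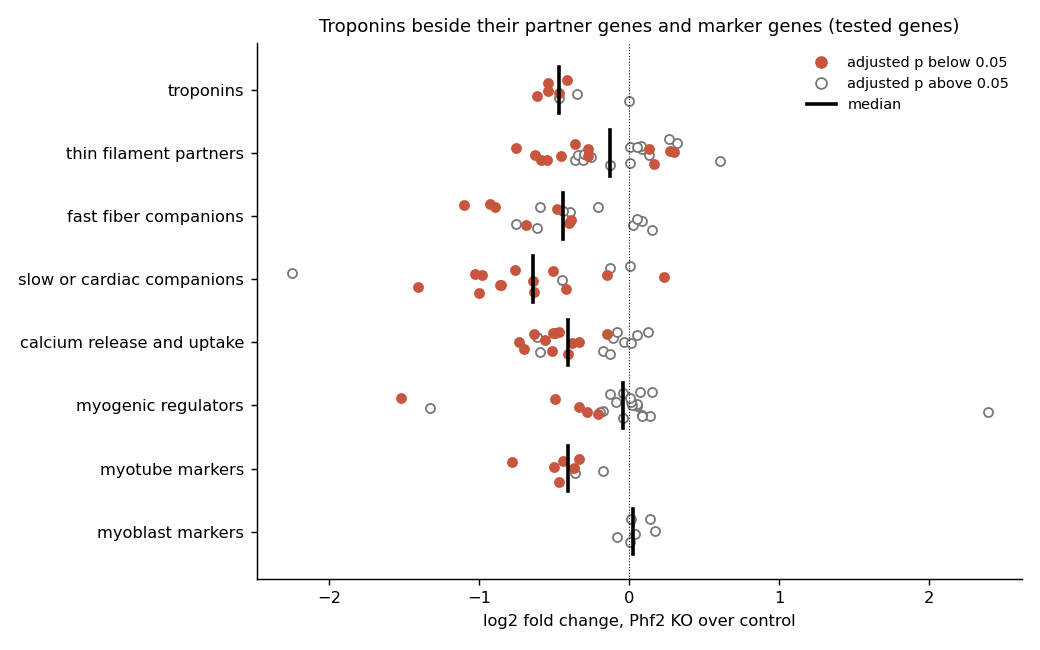
Log2 fold change in *Phf2* KO over control cells of each tested gene of the troponins, of their partner lists and of myotube and myoblast markers. Filled points had an adjusted p below 0.05 and black lines are medians, which are -0.47 for the troponins, -0.64 for the slow or cardiac companions and 0.027 for the myoblast markers.

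The troponin T and I genes stand in pairs in the genome, while *Tnnc1* and *Tnnc2* lie on chromosomes 14 and 2. *Tnni1* and *Tnnt2* are 25.4 kb apart on chromosome 1, *Tnnt1* and *Tnni3* 1.92 kb apart on chromosome 7, and *Tnni2* and *Tnnt3* 54.4 kb apart on the same chromosome. The members of the first pair fell by the same amount, -0.54 each. *Tnnt1* fell past the threshold beside *Tnni3*, which stayed below 2.1 CPM. Within 50 kb of a troponin gene the annotation lists 35 other genes, of which 25 were tested. Their median log2 fold change was -0.07. Of these 25 genes, 1 was lower and 1 higher past the threshold, against 3.26% and 3.22% of all genes tested. *Pkp1*, which encodes the desmosome protein plakophilin and lies 19134 bp from *Tnnt2*, was lower (-0.53, adjusted p = 0.00783 by edgeR), and *Csrp1*, 27201 bp from *Tnni1*, was higher (0.21, adjusted p = 0.00670 by edgeR). On the opposite strand, *Prr33* overlaps *Tnnt3* (log2 fold change -0.05), *Nisch* overlaps *Tnnc1* (0.013) and *Ube2c* overlaps *Tnnc2* (-0.05). The library kit keeps the strand, but whether the counting used it is not given in the sources used here.

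Since 7 of the troponins were lower together, the bases upstream of their RefSeq start sites are shown for the 4 genes past the threshold that have an entry and for *Tnni3*, the near-silent member. Each run holds the 250 bases before the start site in the direction of the gene (RefSeq, GRCm38.p6). The regions are chr1:135836084-135836333 for *Tnnt2* and chr1:135799171-135799420 for *Tnni1* on the plus strand, and chr2:164779735-164779984 for *Tnnc2*, chr7:4515976-4516225 for *Tnnt1* and chr7:4522529-4522778 for *Tnni3* on the minus strand. Capitals mark CANNTG, the E-box that basic helix-loop-helix factors such as MyoD and myogenin bind, and CATTCC on either strand, the MCAT element that TEAD factors bind.
Tnnt2: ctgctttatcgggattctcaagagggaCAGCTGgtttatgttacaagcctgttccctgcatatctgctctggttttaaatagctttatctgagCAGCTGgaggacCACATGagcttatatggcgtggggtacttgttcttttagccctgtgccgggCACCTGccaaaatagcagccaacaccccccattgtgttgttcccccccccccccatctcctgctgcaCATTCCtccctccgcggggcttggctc
Tnni1: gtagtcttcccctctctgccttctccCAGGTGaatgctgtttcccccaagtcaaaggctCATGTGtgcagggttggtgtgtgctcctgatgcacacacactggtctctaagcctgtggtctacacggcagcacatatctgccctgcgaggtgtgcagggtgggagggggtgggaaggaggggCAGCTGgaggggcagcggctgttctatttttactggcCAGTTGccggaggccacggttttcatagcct
Tnnc2: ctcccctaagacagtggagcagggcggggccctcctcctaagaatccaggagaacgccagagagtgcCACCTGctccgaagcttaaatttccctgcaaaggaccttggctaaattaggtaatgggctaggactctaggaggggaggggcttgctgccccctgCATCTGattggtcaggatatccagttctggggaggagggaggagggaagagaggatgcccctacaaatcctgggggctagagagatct
Tnnt1: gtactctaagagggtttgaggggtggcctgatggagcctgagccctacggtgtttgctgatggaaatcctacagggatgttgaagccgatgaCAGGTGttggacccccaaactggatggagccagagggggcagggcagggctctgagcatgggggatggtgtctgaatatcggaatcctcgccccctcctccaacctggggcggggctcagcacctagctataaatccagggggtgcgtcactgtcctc
Tnni3: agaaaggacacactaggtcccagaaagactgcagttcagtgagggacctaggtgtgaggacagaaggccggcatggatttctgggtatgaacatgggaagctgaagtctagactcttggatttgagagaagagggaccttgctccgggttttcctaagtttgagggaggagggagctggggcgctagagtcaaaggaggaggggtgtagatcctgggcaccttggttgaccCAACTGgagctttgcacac

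The *Tnnt2* window held 4 matches of CANNTG, at 223, 157, 145 and 94 bases before the start, of which 2 were CAGCTG, and 1 of CATTCC at 27 bases before it. The *Tnni1* window held 4 matches of CANNTG, 1 of them CAGCTG. The windows of *Tnnc2*, *Tnnt1* and *Tnni3* held 2, 1 and 1 matches of CANNTG and none of CATTCC. Not printed is the window of *Tnnc1*, with 2 matches of CANNTG and 1 of CATTCC. Of the 32817 windows of this length in the same table, 66.2% held CANNTG, 13.0% CAGCTG (counted within CANNTG as well) and 12.6% CATTCC. The MEF2 consensus (2.92% of all windows) and the CArG box (1.47%) had no match in these 6 windows. The windows of the other RefSeq starts of *Tnni1* and *Tnnt2* held 2 and 1 matches of CANNTG. That of *Tnni1* overlaps the window shown, and its 2 matches are among the 4 counted there. As assembled by the authors, the 5′ end of the assembled locus with the highest TPM lay within 100 bases of the start shown in 5 of 6 libraries for *Tnnt2*, *Tnni1* and *Tnnt1*, in 4 for *Tnni3* and in 3 for *Tnnc2*. A match is a run of letters, and binding was not measured here. *Tnni2* and *Tnnt3* are not shown.

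Reads could be told apart between isoforms of a subunit over nearly all of their length. The longest stretches shared by annotated transcripts are shown for 3 pairs, in the sense direction, with all letters shared.
Tnnt2 and Tnnt3: GACTTTGATGACATCCA
Tnni1 and Tnni2: CTGGGCTCTAAGCACAAGGTGT
Tnnc1 and Tnnc2: TGAGTTCAAGGCTGCCTTTGA
These runs have 17, 22 and 21 bases. Over all 7 pairs within a subunit the longest shared stretch was between 14 and 22 bases, short of a whole read of this study.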

How the data were processed

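The authors aligned reads to mm10 with HISAT2 and counted genes with StringTie (versions not given in the sources used here). The deposited matrix holds estimated counts per gene, in whole numbers: 1 count stood for a median of 74.98 to 74.99 covered bases. The reads of the study were longer than this, so 1 count stood for less than 1 read. The tables deposited for each library hold TPM, a signal scaled by the authors within each library, and coverage, the mean depth per base, used here only to work out the count unit. They list reference genes and assembled loci side by side, so adding both counts reads more than once. The rows of reference genes were used.

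Low counts were removed (filterByExpr, minimum count 10), TMM factors were computed, and groups were compared by the quasi-likelihood test of edgeR 4.0.16 (R 4.3.3, robust dispersions), with Benjamini-Hochberg adjustment over 17310 genes, a threshold of 0.05 and a prior count of 0.125. The common biological coefficient of variation was 0.135. This fit gave the adjusted p-values of genes unless another test is named. CPM used TMM-scaled library sizes, which were the sum of counts over the tested genes. Shares and ratios were compared by two-sided exact permutation tests, adjusted over 17 comparisons on each of 5 scales. The planned scale was TPM, and CPM per kilobase and the count ratios were added after seeing the data. Likeness is Pearson's r of log2(CPM + 1) with the mean z score of the 8 troponins, over genes whose mean was 5 CPM or more. Coordinates are those of GENCODE M21. Of the 55401 genes of the matrix, 54349 carried the same versioned identifier there. RefSeq start sites matched 6 of the 8 members.

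The named genes are all 8 members and *Phf2*, of each partner list those with the largest changes past the threshold (at most 5) and any past it in the opposite direction, the 5 genes most like the profile, and genes within 50 kb of a member. The members and lists were chosen with earlier results of these data known, and no list is independent evidence. The fit was checked on counts simulated with the common dispersion, with 200 changed genes of 15478. It called 169 genes, 14 of them unchanged. It recovered 100% of 2-fold changes and 55% of 1.5-fold changes.

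The replicate numbers may pair the libraries, but the labels do not state this. Across 10923 genes, each library's deviation from its group mean correlated with that of its same-numbered partner at 0.250, 0.236 and 0.158, and with other numbers at -0.013 or less. Deviations within a group cancel out, so these correlations are not independent of one another, and they were not tested. The study describes no pairing, so the block was an alternative. Replicate pairs differed by 12.4 to 17.8 times the noise that would hold if each count were 1 read, so no library was a copy of another. Since 1 count was less than 1 read, this multiple is overstated. Alternatives were exactTest, DESeq2 1.42.0, limma-voom and limma on log2(TPM + 1) and log2(TPM + 0.1) (limma 3.58.1), DESeq2 size factors, library size without factors, all genes unfiltered, a filter of 1 CPM in 3 or more libraries, the replicate block, counts divided by 4, and leaving out each library. Other measurements of the study and the raw reads were not analysed here.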

Additional observations from a re-analysis of the deposited data

How the results depend on the processing

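The 5 troponin genes past the threshold became 2 (*Tnnt1* and *Tnnc2*) with limma on log2(TPM + 1) or log2(TPM + 0.1), with 127 and 153 genes past it in all, against 1122. With 1 library left out, the troponin number was between 3 and 7 and that of all genes between 468 and 1039. *Tnnt1*, *Tnnt2* and *Tnnc2* were past the threshold in each of these 6 fits and in all 9 other fits of counts. With the replicate number as a block, 6 troponins and 1316 genes were past it, and among the troponins the block changed only the call of *Tnnc1*. The log2 fold change of *Tnni3*, 0.0015, had the other sign with library size alone (-0.00080), without a filter (-0.0020), with a CPM filter (-0.0017), and in some fits with 1 library left out, which ranged from -0.17 to 0.35. The other 7 troponins kept their direction in every fit. The TPM share of *Tnnt3* differed by between -4.65 and 10.9 points with 1 library left out, and it was lower in the KO cells only without control replicate 3. The share of *Tnni2*, -2.67 points by TPM, was higher by 1.04 points from counts, 1.08 from counts per summed exon length, 1.11 from CPM per kilobase, and differed by between -6.00 and 0.018 points with 1 library left out. The share of *Tnnc2* differed by between -2.47 and -1.32 points with 1 library left out. The cause of these changes was not tested. With sign flips over 3 pairs the smallest p is 0.25, and without pairs it is 0.1, so no share could pass 0.05 in these permutation tests. *Tnni3*, with at most 117 counts, had an SE of 0.31 both as deposited and with counts divided by 4.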
